A study of Mus musculus with 8 samples.

Results

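The 9 genes described here are Ccl19, Cxcl12, Cxcl13, Madcam1, Pdpn, Il7, Ltbr, Bst1 and Pdgfrb, which are known from the stromal cells of lymphoid organs. They were taken by name from a table of 23366 genes, and they had been chosen for their levels in the bottom and top populations. For that reason the difference between bottom and top is given for these genes as a description, with no test. The bottom population, with 4 libraries, and the top population, with 4 libraries, are labelled as beta cells. The cells were sorted from the pancreas of NOD mice aged 8 to 10 weeks. NOD is an inbred strain that develops autoimmune diabetes, and beta cells are the insulin-producing cells of the islets. No genotype or treatment separates the populations, and the gate that defines them is not given in the sources used here. Each library was amplified from about 1000 cells. Batch 1 holds bottom 1, bottom 2, top 1 and top 2, and batch 2 holds bottom 3, bottom 4, top 3 and top 4. Beyond the batch, the number is a name only.

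Lymphoid organs are built on a meshwork of fibroblast-like reticular cells that express podoplanin (Pdpn) and PDGF receptor beta (Pdgfrb). In the T cell zone these cells secrete CCL19, which draws cells bearing CCR7, and interleukin 7, which keeps T cells alive. In the B cell follicle, stromal cells secrete CXCL13, the ligand of CXCR5, and CXCL12 is the widely made ligand of CXCR4. Signals through the lymphotoxin beta receptor (Ltbr) set up this stroma during development, and the same program can appear in chronically inflamed tissue. MAdCAM-1, on the venules of mucosal lymphoid tissue and on stromal organizer cells, binds the integrin alpha 4 beta 7. BST1 (CD157) is a surface enzyme first described on bone marrow stromal cells.

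The 250 bases before the annotated start were looked up in RefSeq for GRCm38.p6, and windows of 6 of the 9 genes were read. The look-up did not cover every chromosome. No window was read for Il7, Bst1 and Pdgfrb, which does not mean that RefSeq lacks them. This build is not the mm9 build named for the counts, and no count was tied to these coordinates. The windows of the chemokine genes Ccl19 and Cxcl13 and of Madcam1 are shown as examples. The windows were searched on both strands for an NF-kappaB consensus of 10 bases and for the TATA box letters TATAAA. Sequences outside this consensus that NF-kappaB may bind, those of the lymphotoxin pathway included, were not searched for. The sequences run 5′ to 3′ on the strand of the gene, the last base lies next to the start, and capitals mark a match. Ccl19 lies at chr4:42756366-42756615 on the minus strand, Cxcl13 at chr5:95956689-95956938 on the plus strand, and Madcam1 at chr10:79664309-79664558 on the plus strand.
Ccl19: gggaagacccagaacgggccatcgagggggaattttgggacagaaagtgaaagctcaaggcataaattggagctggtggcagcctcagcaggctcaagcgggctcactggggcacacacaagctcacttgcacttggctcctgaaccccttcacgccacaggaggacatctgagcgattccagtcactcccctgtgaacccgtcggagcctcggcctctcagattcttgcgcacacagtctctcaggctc
Cxcl13: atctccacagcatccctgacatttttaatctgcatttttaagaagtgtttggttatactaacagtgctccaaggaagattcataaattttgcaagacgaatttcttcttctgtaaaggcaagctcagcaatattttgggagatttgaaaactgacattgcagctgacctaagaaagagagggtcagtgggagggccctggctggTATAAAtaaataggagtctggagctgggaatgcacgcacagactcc
Madcam1: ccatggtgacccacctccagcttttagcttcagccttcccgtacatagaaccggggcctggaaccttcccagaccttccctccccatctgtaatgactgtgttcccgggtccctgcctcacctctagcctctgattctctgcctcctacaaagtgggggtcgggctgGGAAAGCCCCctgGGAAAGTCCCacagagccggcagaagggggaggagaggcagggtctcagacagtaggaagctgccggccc

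Madcam1 held 2 matches to the NF-kappaB consensus, which start 83 and 70 bases before the gene's start and read on the opposite strand. None of the other 5 windows held this consensus, which occurred in 3.9% of 32851 promoter windows of the same length. Cxcl13 held 1 TATAAA, 46 bases before its start, and this motif occurred in 12.4% of all windows. None of the other 5 windows read held TATAAA, so the windows shown include every match found. A match is a run of letters and not a measured site, and the other windows lack only these letters in this stretch.

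Ccl19 stood far higher in bottom than in top, and its level varied widely among the bottom libraries. Levels are CPM, the share of a library's counts on a common scale, after TMM scaling, a correction for library composition. Ccl19 had 16.8, 1380.0, 188 and 3559.6 CPM in bottom 1 to bottom 4, against 0.863, 0.753, 0.866 and 0.476 CPM in top 1 to top 4. Every bottom library lay above every top library, with bottom 4 highest and bottom 1 lowest. These levels came from 154, 14763, 1786 and 38419 counts in bottom, against 6, 6, 7 and 3 counts in top. The mean was 1286 ± 1632 CPM in bottom and 0.740 ± 0.183 CPM in top (SD, n = 4 each), and the log2 fold change was 10.56 (SE 1.64). Without bottom 4 the bottom mean was 528 CPM. Reads of Ccl19 made up 0.439% of all counts in bottom 4, 0.131% in bottom 2, 0.0246% in bottom 3 and 0.0016% in bottom 1. The deposited estimates of Ccl19 were not whole numbers in bottom 2, bottom 3 and bottom 4, so some of its reads had been divided with another feature, and its level is uncertain to that extent.

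In bulk libraries fewer cells of a type and less RNA per cell cannot be told apart, which holds for each gene below. Cxcl12 was detected in bottom and listed at 0 in top. It had 0, 32.3, 17.3 and 39.3 CPM in bottom 1 to bottom 4, from 0, 346, 164 and 424 counts, and 0 in all 4 top libraries. Bottom 1 had none, so the populations overlapped at 0. Pooled over libraries, the level was at least 227-fold higher in bottom, against a floor of 3 counts over the top population. Floors and intervals cover counting error only, since the reads were amplified and carry no molecular identifiers.

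Cxcl13 was found in 2 of the bottom libraries. It had 0, 19.3, 0 and 10.6 CPM in bottom 1 to bottom 4, against 0, 1.63, 0.124 and 0 CPM in top 1 to top 4. Bottom 2 and bottom 4 lay above all top libraries, whereas bottom 1 and bottom 3 had no count, so the populations overlapped. The ratio of pooled levels was 16.7 (95% exact interval 9.8 to 30.9). The mean was 7.45 ± 9.31 CPM in bottom and 0.439 ± 0.798 CPM in top (SD, n = 4 each).

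Madcam1, the vascular addressin, came from 1 library in each population. Bottom 4 had 75.8 CPM, from 818 counts, and bottom 1, bottom 2 and bottom 3 had 0, against 3.14 CPM in top 2, from 25 counts, and 0 in the other top libraries. The populations overlapped, and without bottom 4 the gene was higher in top. The difference of mean log2(CPM + 1), bottom minus top, was 1.05 over all libraries and -0.50 without bottom 4. Within batch 1 it was -0.98, and within batch 2 it was 3.19.

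Among the bottom libraries, the surface glycoprotein gene Pdpn had the same order as Ccl19. Its level was 0.437, 19.1, 4.21 and 21.1 CPM in bottom 1 to bottom 4, against 0.144, 0, 0 and 0 CPM in top 1 to top 4. Every bottom library lay above every top library, although bottom 1 rested on 4 counts and top on 1 count in all. The ratio of pooled levels was 347 (95% exact interval 62.1 to 13753), a width that the single top count sets.

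Pdgfrb, the receptor of pericytes and reticular cells, was at low levels. It had 0, 0.467, 1.69 and 6.02 CPM in bottom 1 to bottom 4, against 0, 0.126, 0.124 and 0 CPM in top 1 to top 4. Bottom 4 was highest, and bottom 1 overlapped the top libraries at 0. The ratio of pooled levels was 31.4 (95% exact interval 8.43 to 263), with 86 counts in bottom and 2 in top.

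Il7, the T cell survival factor, ran in another order from Ccl19. It had 7.32, 4.21, 3.16 and 0.0927 CPM in bottom 1 to bottom 4, against 0.144, 0, 0 and 0.318 CPM in top 1 to top 4. It was highest in bottom 1, where Ccl19 was lowest among bottom libraries, and lowest in bottom 4, where Ccl19 was highest. The single count in bottom 4 lay among the top libraries. The ratio of pooled levels was 34.8 (95% exact interval 11.7 to 171).

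Ltbr, the receptor of membrane lymphotoxin and LIGHT, was the only one of the 9 genes other than Ccl19 with a count in all 8 libraries. It had 44.1, 23.6, 4.85 and 12.1 CPM in bottom 1 to bottom 4, against 4.32, 1.38, 1.98 and 4.76 CPM in top 1 to top 4. Every bottom library lay above every top library, but bottom 3 lay close to top 4. The mean was 21.2 ± 17.1 CPM in bottom and 3.11 ± 1.68 CPM in top (SD, n = 4 each), with a log2 fold change of 2.45 (SE 0.90). Like Il7, Ltbr was highest in bottom 1.

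Bst1 split both populations. It had 41.2, 0.0935, 0 and 82.4 CPM in bottom 1 to bottom 4, against 7.91, 0, 0 and 5.24 CPM in top 1 to top 4. Libraries 1 and 4 held nearly all of its counts in each population, and the populations overlapped. The mean was 30.9 ± 39.4 CPM in bottom and 3.29 ± 3.95 CPM in top (SD, n = 4 each), with a log2 fold change of 3.18 (SE 2.22).

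**Figure D1:**
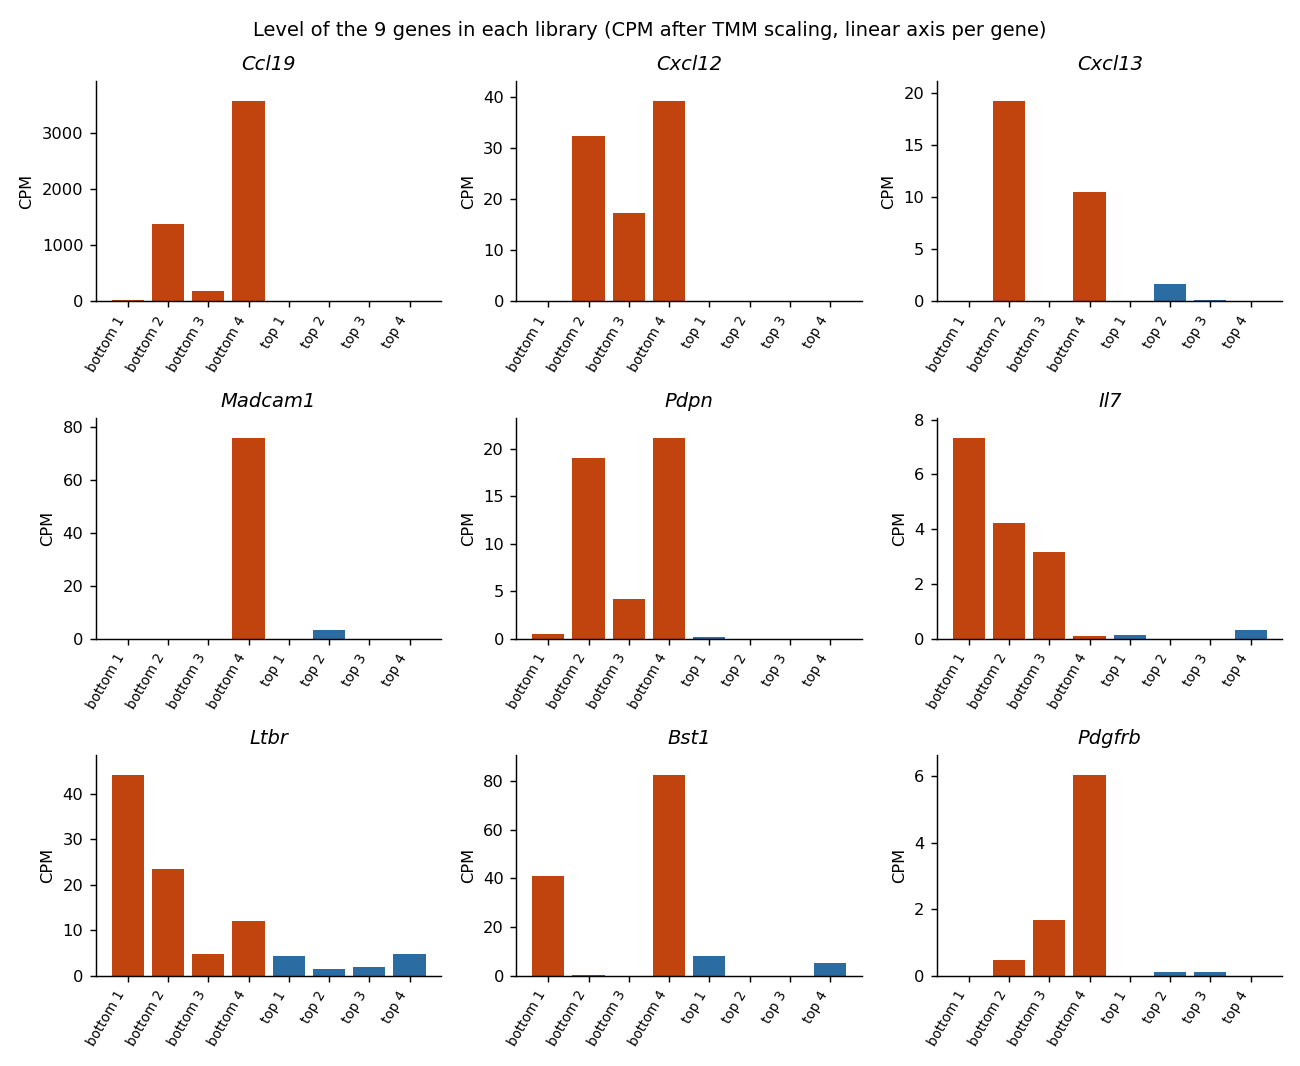
Level of each of the 9 genes in the 4 bottom libraries (orange bars) and the 4 top libraries (blue bars), in CPM after TMM scaling, on a linear axis of its own for each gene. Ccl19, Cxcl12, Pdpn and Pdgfrb are highest in bottom 4, Madcam1 stands in bottom 4 with a small bar in top 2, and Il7 and Ltbr are highest in bottom 1.

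Only 3 of the 9 genes, Ccl19, Ltbr and Bst1, entered the edgeR test. The filter asks for a minimum count in at least 4 libraries, and the other 6 reached it in too few, Cxcl12 and Madcam1 among them despite 934 and 818 counts in bottom. Ccl19 was the 1 gene of the 9 that was called higher in bottom, beside 0.282% of all 11721 genes tested, and since these genes were chosen on this contrast nothing is read from that count. The populations did not overlap for 3 of the 9 genes, which were Ccl19, Pdpn and Ltbr, beside 2.68% of all genes with a count. All 9 genes had their highest library in bottom, beside 60.1% of genes with a count, and 6 had it in bottom 4, beside 13.2%. The number of these genes with a count was 5, 8, 6 and 9 in bottom 1 to bottom 4, against 5, 5, 4 and 4 in top 1 to top 4. Bottom 4 held all of them, and bottom 1 held no more than the fullest top libraries.

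Although all 9 genes are known from lymphoid stroma, they did not share 1 pattern across the libraries. Over the 8 libraries the Pearson r of log2(CPM + 1) to Ccl19 was 0.98 for Pdpn, 0.96 for Cxcl12, 0.80 for Pdgfrb and 0.76 for Cxcl13. It was lower for Ltbr at 0.58, Madcam1 at 0.51, Il7 at 0.41 and Bst1 at 0.25. These are descriptions over 8 libraries that share their scaling, and the bottom and top difference by which the genes were chosen contributes to each. Within bottom, Ccl19, Cxcl12 and Pdpn shared 1 order, with bottom 4 first, then bottom 2, bottom 3 and bottom 1. The proportions among them were not fixed: Ccl19 had 42.7 counts for each Cxcl12 count in bottom 2, 10.9 in bottom 3 and 90.6 in bottom 4. For each count of Dcn, a matrix proteoglycan of fibroblasts, Ccl19 had 9.06 counts in bottom 1, 51.8 in bottom 2, 1.80 in bottom 3 and 10.3 in bottom 4. Ccl19 did not keep a constant ratio to this fibroblast gene across the bottom libraries.

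The 8 tested genes most like Ccl19, ranked by the same r among all genes tested other than the 9, were Apoe, Hddc2, Vim, Col3a1, Trpa1, Olfml3, Ephb4 and Nrp1, with r between 0.97 and 0.99. Apoe, a lipid carrier, had 1.42, 76.0, 14.3 and 98.2 CPM in bottom 1 to bottom 4, against 0.863, 0.251, 0 and 0.159 CPM in top 1 to top 4. Vim, the intermediate filament of mesenchymal cells, had 1.20, 26.1, 24.3 and 41.8 CPM in bottom, against 0, 0.251, 0 and 0.318 CPM in top. Col3a1, a fibrillar collagen, had 1.20, 25.9, 9.69 and 187 CPM in bottom, against 0, 0, 0 and 0.159 CPM in top. In all 3, bottom 4 was highest and bottom 1 lowest among the bottom libraries, and no top library reached the lowest of them. The ranking used these same libraries, so this likeness follows from how the genes were picked. It did not hold for all 8, since Ephb4 was lowest in bottom 3, at 1.58 CPM against 1.64 CPM in bottom 1. Nrp1, a co-receptor of semaphorins and VEGF, had 3.28, 25.1, 41.1 and 115 CPM in bottom, against 0.288, 1.00, 0 and 0 CPM in top. Hddc2 differed from the rest in being well detected in both populations, with 15.8, 48.2, 30.2 and 51.6 CPM in bottom, against 13.5, 16.2, 14.1 and 11.4 CPM in top. Trpa1 and Ephb4 had a count in every bottom library and none in top.

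**Figure D2:**
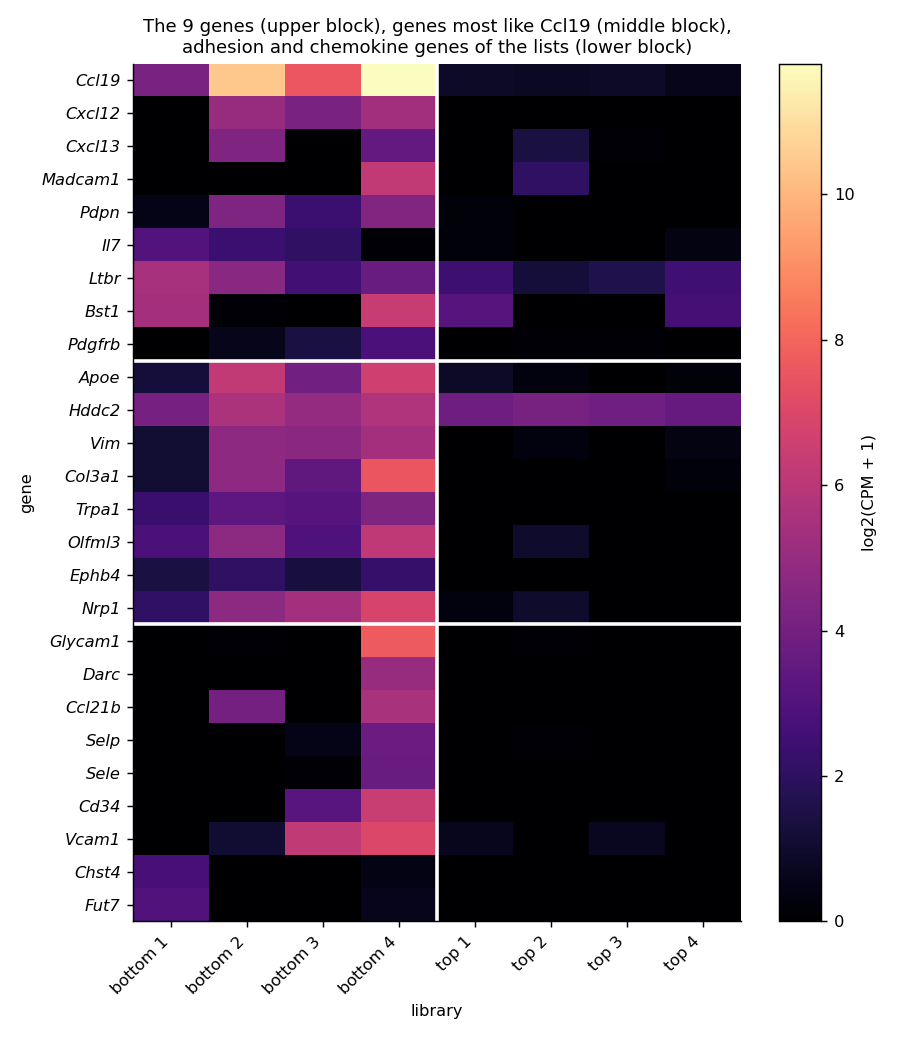
Colour gives log2(CPM + 1) in the 4 bottom libraries (left) and the 4 top libraries (right), for the 9 genes in the upper block, the 8 tested genes most like Ccl19 in the middle block, and 9 adhesion and chemokine genes, chosen after their values were seen, in the lower block. Ccl19, Cxcl12, Pdpn and most of the middle block are brightest in bottom 4, whereas Il7, Ltbr, Chst4 and Fut7 are brightest in bottom 1.

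Summed markers of other cell types also differed among the libraries, and their order followed some of the 9 genes and not others. The summed level of 14 fibroblast and stellate markers was 20.2, 227, 271 and 931 CPM in bottom 1 to bottom 4, against 39.3 to 75.4 CPM in top, and 13 of the 14 had a count in bottom, against 10 in top. Bottom 4 was highest, as it was for Ccl19, and the sum of bottom 1 lay below every top library. The top sums came mainly from Col6a3, at 19.5 to 62.1 CPM, and Gsn, at 4.33 to 16.95 CPM. In bottom 1 these genes had 0.437 and 1.75 CPM. Dcn and Col3a1 instead had 1.86 and 1.20 CPM in bottom 1 and at most 0.144 and 0.159 CPM in top. Col1a2 had 0.109 CPM in bottom 1 and 12.2 CPM in top 4. The 13 blood endothelial markers summed to 11.1, 25.1, 61.8 and 354 CPM in bottom, against 0.124 to 9.21 CPM in top, with 13 of 13 detected in bottom, against 5 in top. Pericyte and smooth muscle markers, 11 in all, summed to 1.97, 19.3, 107 and 284 CPM in bottom, against 1.73 to 5.72 CPM in top, with 9 detected in bottom, against 5 in top, and Cnn1 and Cspg4 at 0 in every library. Within bottom both lists had the order bottom 4, bottom 3, bottom 2, bottom 1, which is the order of Pdgfrb and not that of Ccl19. Both were highest in bottom 4, the library that alone among bottom libraries held Madcam1. The part of these cell types in the levels of the 9 genes was not tested.

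Il7 and Ltbr, highest in bottom 1, went with another list. The 8 intestinal markers summed to 13213, 3172, 43.4 and 14.3 CPM in bottom 1 to bottom 4, against 51.1 to 842 CPM in top, and all 8 had a count in both populations. Within bottom this sum had the same library order as Il7, and its part in the level of Il7 or Ltbr was not tested. Pan-leukocyte markers summed to 10.1 to 32.8 CPM in bottom, against 5.08 to 7.05 CPM in top. A count was found for 9 of 9 in bottom, against 8 in top. The highest sums rested on Rac2 in bottom 1, at 21.1 CPM, and on Arhgdib in bottom 4, at 19.7 CPM. Ptprc, the common leukocyte antigen, had 0.0927 to 2.95 CPM in bottom, against 0 to 0.635 CPM in top. T cell markers summed to 15.3 to 21.1 CPM in bottom, against 3.49 to 8.63 CPM in top. A count was found for 9 of 9 in bottom, against 8 in top. Lck and Cd8a had the highest means of this list in bottom, 6.55 and 6.25 CPM, against 1.66 and 1.88 CPM in top. Cd3e and Cd3g had only 1 and 3 counts in all of bottom, against 1 and 4 in top. Cd4 averaged 0.344 CPM in bottom and 0.388 CPM in top. B cell markers summed to 2.73 to 15.4 CPM in bottom, against 6.67 to 18.6 CPM in top, with 6 of 8 detected in bottom, against 5 in top, and Blk and Pax5 at 0 in every library. Macrophage markers stayed at 0.546 to 2.69 CPM in bottom, against 0.476 to 4.27 CPM in top, with 2 of 9 detected in bottom, against 4 in top, and the defining genes Csf1r, Cd68, C1qb and C1qc at 0 in every library. Lymphatic endothelial markers summed to 19.1 to 45.2 CPM in bottom, against 18.7 to 44.9 CPM in top, with 5 of 6 detected in bottom, against 3 in top, and Mmrn1 at 0 in every library. Dendritic cell markers summed to 4.30 to 10.4 CPM in bottom, against 4.60 to 6.06 CPM in top, and mesothelial markers to 0.218 to 11.2 CPM in bottom, against 0.495 to 84.6 CPM in top. Schwann and glia markers summed to 230 to 280 CPM in bottom, against 89.5 to 131 CPM in top, with no overlap, and duct markers to 276 to 795 CPM in bottom, against 140 to 396 CPM in top.

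**Figure D3:**
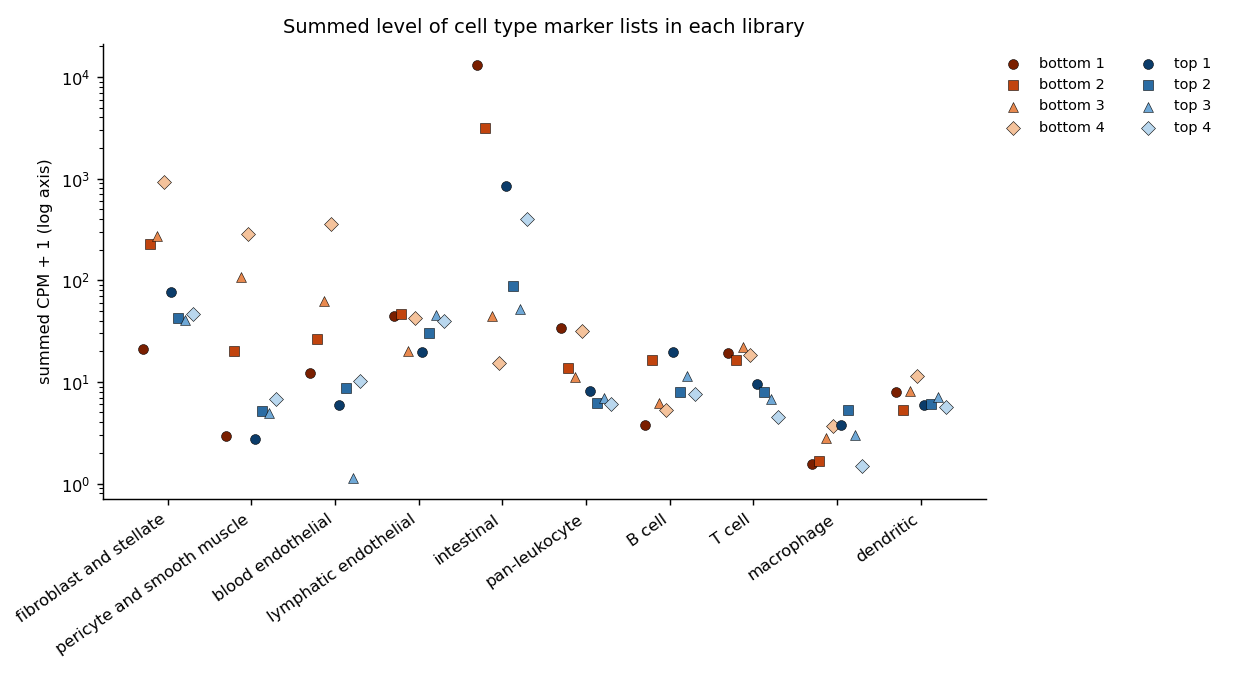
Summed level of 10 marker lists in each library, as CPM + 1 on a log axis, with the bottom libraries in orange left of the top libraries in blue. Fibroblast, pericyte and blood endothelial sums are highest in bottom 4, and the intestinal sum is highest in bottom 1 at 13213 CPM.

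On the cell label, 10 beta cell markers summed to 38729 to 81375 CPM in bottom, against 344010 to 505630 CPM in top. The beta cell factor Mafa was at 0 in every library. Whether a 0 in every library means no RNA or a gene that the counting missed was not tested, here or for other genes. Delta cell markers, led by somatostatin, summed to 33437 to 57805 CPM in bottom, against 2655 to 5305 CPM in top. In bottom 1 the delta cell sum, at 52690 CPM, was above the beta cell sum, at 38729 CPM. In the other bottom libraries the beta cell sum was the higher. The name beta cells is thus that of the labels, and the bottom libraries also held many delta cell reads. Total counts were 7256042 to 11262368 in bottom, against 6657639 to 9366913 in top. The common biological coefficient of variation was 0.806. Whether the libraries are from different animals is not stated in the labels. The p-values therefore reflect only how much these libraries vary, and that variation may be technical.

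The batches of the bottom population gave a contrast other than that of bottom and top, for which the 9 genes were chosen. It is not independent of the choice, since the same bottom values entered both and earlier results of these data were known. In the edgeR quasi-likelihood test of batch 2 over batch 1 within bottom, with 1 mean for each population and batch, the log2 fold change was 1.42 (SE 1.56, adjusted p = 0.772) for Ccl19. For Ltbr it was -1.99 (SE 1.12, edgeR adjusted p = 0.504), and for Bst1 it was 1.00 (SE 2.94, edgeR adjusted p = 0.928). None of the 3 passed, and the background was 0.0% of 11721 genes in edgeR, with 1526 at an unadjusted p under 0.05, 48 called by limma and 787 by DESeq2. The sign of the Ccl19 value rested on bottom 4, without which it was -1.89, and that of Bst1 turned to -0.08 without bottom 2 and -10.42 without bottom 4. The other 6 genes were left out by the filter and not tested. Of these, Cxcl12, Pdpn, Cxcl13 and Pdgfrb were higher in bottom 2 than in bottom 1 within batch 1, and higher in bottom 4 than in bottom 3 within batch 2. Il7 went the other way in both batches, with 7.32 CPM in bottom 1 and 4.21 CPM in bottom 2, and 3.16 CPM in bottom 3 and 0.0927 CPM in bottom 4. Madcam1 was at 0 in bottom 1, bottom 2 and bottom 3.

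The difference between bottom and top was not shown to depend on the batch for any tested gene of the 9. The edgeR interaction, batch 2 minus batch 1 on the log2 scale, was 1.66 (SE 2.68, adjusted p = 0.969) for Ccl19. It was -2.23 (SE 1.56, edgeR adjusted p = 0.845) for Ltbr and 1.60 (SE 4.20, edgeR adjusted p = 0.982) for Bst1. The background was again 0.0% in edgeR, with 885 genes at an unadjusted p under 0.05, 0 called by limma and 189 by DESeq2.

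The partners of the 9 genes, the receptors and ligands they act with, were mostly close to 0. Ccr7, the receptor of CCL19, had 1.20, 1.31, 1.47 and 1.30 CPM in bottom 1 to bottom 4, against 2.01, 1.51, 1.85 and 1.43 CPM in top 1 to top 4. Its log2 fold change was -0.36 with an SE of 0.71 (edgeR adjusted p = 0.924). The Ccr7 libraries lay close together in both populations, unlike those of Ccl19. Ccl21a, the other CCR7 ligand, had 2.15 CPM in bottom 2 and 0 elsewhere, and its near-identical copies make its separate level uncertain. Summed with Ccl21b and Ccl21c it had 17.4 CPM in bottom 2, 46.5 CPM in bottom 4 and 0 in the other 6 libraries. The Ccl21 genes were thus seen in the same bottom libraries as Cxcl13.

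Cxcr4, the receptor of CXCL12, had 0, 1.31, 4.53 and 6.58 CPM in bottom 1 to bottom 4, against 1.15, 0.126, 0 and 0 CPM in top 1 to top 4. Ackr3, listed as Cxcr7, the scavenger of CXCL12, reached 1.11 CPM in bottom 4 and 1.00 CPM in top 2. Cxcr5, the receptor of CXCL13, had 0.0935 to 0.527 CPM in bottom, against 0.377 to 4.45 CPM in top. Cxcr4 thus was highest in bottom 4 and bottom 3, and the highest Cxcr5 library was top 3. Of the integrin bound by MAdCAM-1, Itga4 had 68.2, 56.9, 118 and 39.2 CPM in bottom, against 73.9, 65.2, 39.6 and 78.6 CPM in top. Its log2 fold change was 0.13 with an SE of 0.42 (edgeR adjusted p = 0.957). Itgb7, the other chain, reached 0.765 CPM in bottom 1 and was at 0 in all top libraries.

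Il7r, the receptor of interleukin 7, had 0.185 to 0.654 CPM in bottom, against 0.159 to 0.628 CPM in top. Il2rg, the common gamma chain that Il7r pairs with, had 12.5, 0.561, 0.421 and 35.7 CPM in bottom 1 to bottom 4, against 0.288, 0.502, 0.742 and 0 CPM in top 1 to top 4. Il2rg was high in bottom 1 and bottom 4, the libraries that also held Bst1. The lymphotoxin genes Lta and Ltb had 2 counts and 1 count in all bottom libraries and 0 in top, and Tnfsf14, which encodes LIGHT, had no count in any library. The ligands of LTBR were thus at or near 0 where the receptor was measured.

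Among the PDGF genes, Pdgfra, the receptor of fibroblasts, had 0, 25.1, 0.632 and 24.7 CPM in bottom 1 to bottom 4, against 0.288, 0, 0.247 and 0 CPM in top 1 to top 4. It was high in bottom 2 and bottom 4, as Cxcl13 was. Pdgfb, a ligand of both receptors, had 1.86, 1.12, 12.1 and 3.61 CPM in bottom, against 7.48, 3.01, 8.29 and 3.02 CPM in top. Its log2 fold change was -0.65 with an SE of 1.00 (edgeR adjusted p = 0.896). Pdgfd, a ligand of PDGF receptor beta, and Clec1b, the platelet receptor of podoplanin, had no count.

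The wider pathways held 95 other genes in 6 lists, of which 38 had enough counts for the edgeR test of bottom over top. None of the 38 passed, where 0.444% of all genes tested passed in either direction. At an unadjusted p under 0.05 there were 8 of the 38, beside 10.3% of all genes tested. DESeq2 called 4 of them (Cx3cl1, Cxcl16, Kitl and Mfge8), beside 5.03% of all genes tested, and limma called Mfge8, beside 1.24%. The median log2 fold change of the 38 was 0.52, with 27 of 38 above 0, beside a median of 0.003 over all genes tested. The lists were chosen with earlier results of these data known, so nothing is read from this shift or from the list medians below.

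The reticular, perivascular and PDGF list had the highest median, 2.61 over 7 tested of 25 genes, with 6 above 0. Tagln, a smooth muscle actin-binding protein, had 0, 16.9, 9.90 and 74.0 CPM in bottom 1 to bottom 4, against 0, 3.64, 1.85 and 0 CPM in top 1 to top 4 (log2 fold change 3.80, SE 2.04, edgeR adjusted p = 0.596). Anpep, a peptidase of fibroblasts and of the intestinal brush border, had 765, 150, 3.16 and 6.95 CPM in bottom, against 22.9, 0.753, 10.6 and 0.794 CPM in top (log2 fold change 2.61, SE 1.78, edgeR adjusted p = 0.710). Tagln was highest in bottom 4, where the pericyte markers were, and Anpep in bottom 1, where the intestinal markers were. Pdgfa, another PDGF ligand, averaged 15.5 ± 9.28 CPM in bottom and 12.4 ± 3.11 CPM in top (SD, n = 4 each, edgeR adjusted p = 0.959).

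The follicular dendritic cell list had a median of 1.27 over 8 tested of 10 genes, with 5 above 0. Mfge8, which tags dying cells for uptake, had 65.8, 109, 74.4 and 274 CPM in bottom 1 to bottom 4, against 12.4, 0.628, 3.34 and 0 CPM in top 1 to top 4. Every bottom library lay above every top library, and the log2 fold change was 5.15 with an SE of 1.29 (edgeR adjusted p = 0.164). Prnp, the prion protein, went the other way, with 176, 279, 358 and 395 CPM in bottom, against 509, 686, 408 and 709 CPM in top (log2 fold change -0.98, SE 0.30, edgeR adjusted p = 0.264). Enpp2, which makes lysophosphatidic acid, averaged 173 ± 94.2 CPM in bottom and 283 ± 152 CPM in top (SD, n = 4 each, edgeR adjusted p = 0.565).

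Homeostatic chemokines and their receptors had a median of 0.31 over 6 tested of 16 genes, with 4 above 0. Cxcl16, a transmembrane chemokine, had 64.5, 3.27, 45.9 and 49.8 CPM in bottom 1 to bottom 4, against 4.60, 0.502, 1.48 and 0.635 CPM in top 1 to top 4. It was low in bottom 2, below top 1, and its log2 fold change was 4.57 with an SE of 1.12 (edgeR adjusted p = 0.154, the smallest of the 38 genes). Ccl25, a chemokine of thymus and small intestine, had 1146, 235, 0 and 0 CPM in bottom, against 91.5, 6.78, 8.29 and 1.59 CPM in top, with an edgeR adjusted p of 0.994. It was found in the bottom libraries with the highest intestinal marker sums. Ccrl2, an atypical chemokine receptor, averaged 16.8 ± 12.3 CPM in bottom and 25.4 ± 28.5 CPM in top (SD, n = 4 each, edgeR adjusted p = 0.825).

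The list of lymphotoxin receptor ligands and noncanonical NF-kappaB had a median of 0.56 over 9 tested of 18 genes, with 7 above 0. Its most abundant genes by CPM were Birc2, Chuk and Traf3, which act between the receptor and NF-kappaB. Birc2 averaged 150 ± 78.1 CPM in bottom and 85.5 ± 29.7 CPM in top (SD, n = 4 each, edgeR adjusted p = 0.585). Chuk averaged 80.3 ± 35.4 CPM in bottom and 69.9 ± 21.9 CPM in top, and Traf3 20.7 ± 9.41 CPM in bottom and 22.2 ± 14.0 CPM in top (SD, n = 4 each). For both the populations overlapped, with edgeR adjusted p-values of 0.937 for Chuk and 0.966 for Traf3.

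The list named interleukin 7 signalling had a median of -0.17 over 6 tested of 12 genes, with 3 above 0. It also holds genes of other cytokines, Kitl, Flt3l and Csf1 among them, so its median does not describe interleukin 7 signalling alone. The 3 above 0 were Stat5a at 0.16, Flt3l at 0.87 and Kitl at 5.07. Jak1, a kinase of the interleukin 7 receptor, averaged 152 ± 65.8 CPM in bottom and 251 ± 23.5 CPM in top (SD, n = 4 each, log2 fold change -0.78, SE 0.29, edgeR adjusted p = 0.371). Stat5b averaged 19.7 ± 15.1 CPM in bottom and 24.2 ± 10.4 CPM in top, and Csf1, the macrophage growth factor, 19.4 ± 25.4 CPM in bottom and 13.1 ± 10.6 CPM in top (SD, n = 4 each). Their edgeR adjusted p-values were 0.825 for Stat5b and 0.936 for Csf1. In the list of addressins and adhesion molecules, 3 of 15 genes were tested, with a median of 0.57 and all 3 above 0. Icam1 averaged 28.4 ± 28.7 CPM in bottom and 5.77 ± 9.10 CPM in top, and Itgb1 158 ± 54.1 CPM in bottom and 106 ± 34.3 CPM in top (SD, n = 4 each), with edgeR adjusted p-values of 0.783 for Icam1 and 0.683 for Itgb1.

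**Figure D4:**
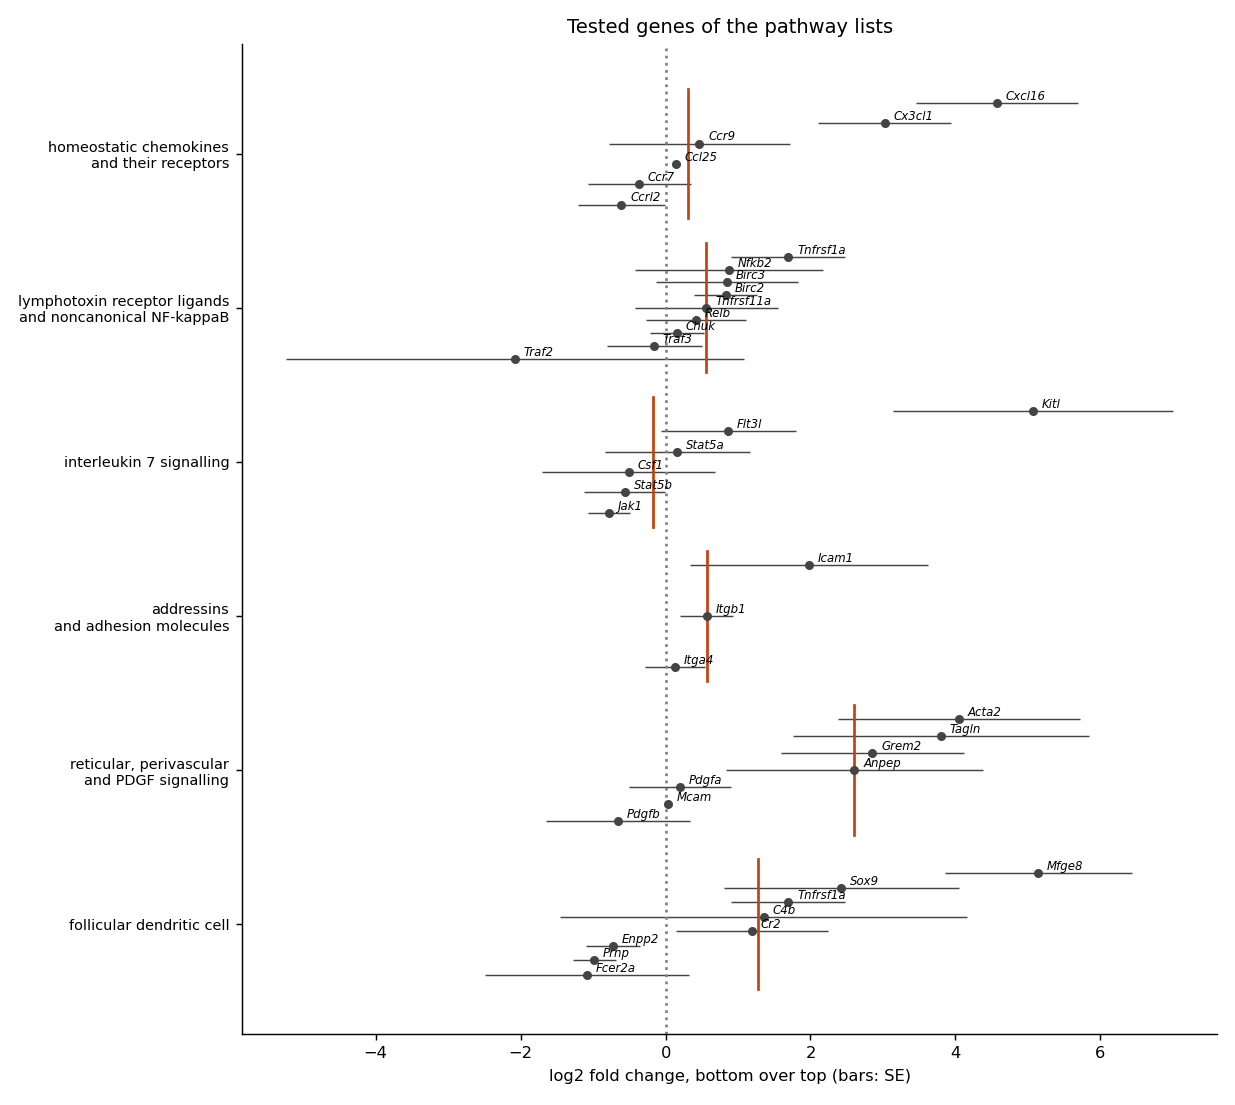
Log2 fold change, bottom over top, of the 38 tested genes of the 6 pathway lists, with the SE as a bar (none is drawn for Ccl25 and Mcam, whose test statistic was too close to 0 to give one) and the median of each list as a vertical orange line. Tnfrsf1a belongs to 2 lists, the reticular list has the highest median at 2.61, and no gene passed the edgeR test.

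Of the 57 genes of these lists left out of the test by the filter, 7 had no count and 50 had one. Among these 50, 46 had their highest library in bottom, beside 63.4% of all genes with a count that were left out of the test, and 26 had it in bottom 4, beside 19.3%. Since the lists were chosen with earlier results of these data known, nothing is read from these shares. A gene left out could be high in a few libraries only, so the shares describe single libraries more than a population. Several of them were singled out after their values were seen, and they did not share 1 library. Glycam1, a ligand of L-selectin made by high endothelial venules, had 207 CPM in bottom 4 and at most 0.126 CPM in any other library. Darc (Ackr1), the chemokine receptor of venules, had 31.6 CPM in bottom 4 and 0 elsewhere. The selectins Selp and Sele had 12.7 and 12.2 CPM in bottom 4 and at most 0.421 CPM in any other library. Chst4 and Fut7, enzymes that build the sugars bound by L-selectin, were instead highest in bottom 1, with 5.46 and 7.10 CPM there, 0.371 and 0.556 CPM in bottom 4 and 0 in the other 6 libraries. Bottom 4 was also the 1 bottom library with Madcam1, and its blood endothelial marker sum was the highest of the 8.

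Vcam1, Cd34 and Fn1 were singled out in the same way. Vcam1, the ligand of the integrin alpha 4 beta 1, had 0, 1.12, 72.7 and 127 CPM in bottom 1 to bottom 4, against 0.575, 0, 0.618 and 0 CPM in top 1 to top 4. Cd34, a sialomucin of endothelial and stromal cells, had 0, 0, 8.22 and 83.8 CPM in bottom and 0 in all top libraries. Fn1, fibronectin, had 0, 84.4, 21.4 and 61.0 CPM in bottom, against 0, 0.126, 0.124 and 0.159 CPM in top. These 3 were at 0 in bottom 1, and Vcam1 and Cd34 were highest in bottom 4. Fn1 instead was highest in bottom 2, as Cxcl13 was.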

How the data were processed

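RNA of 4 bottom and 4 top libraries was measured by sequencing of cDNA made with the SMARTer Ultra Low RNA kit and Nextera XT, per the labels' protocols. The authors deposited expected counts per gene, estimates in which RSEM divides reads that match several genes, per the submitters' processing notes, which also name edgeR and the build mm9. For the aligner, gene annotation and software versions, the sources used here give nothing. Among all deposited expected counts 34.8% had a fractional part, and values were rounded before testing. The kit does not mark strand as far as the labels say, so overlapping antisense genes could not be separated.

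Genes were tested with the edgeR 4.0.16 quasi-likelihood test in R 4.3.3, after TMM scaling and filterByExpr with the population as grouping, which kept 11721 genes. The model for bottom over top had the batch as an additive term, and the batch contrasts and the interaction used 1 mean for each population and batch. P-values were adjusted by Benjamini-Hochberg across the 11721 genes, with 0.05 as the limit for a call. The standard error (SE) was taken from the fold change and the test statistic of the same fit. DESeq2 1.42.0, limma 3.58.1, other scalings and filters, single batches and the omission of each library were alternatives. Intervals on ratios of pooled counts are exact binomial intervals at 95% confidence, and they and the floor of 3 counts cover counting error only.

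The 9 genes and all lists were chosen with earlier results of these data known. Named beside the 9 genes were their receptors and ligands, any gene of the 6 pathway lists that passed together with the 3 tested genes of each list with the highest mean CPM, and the 8 tested genes most correlated with Ccl19. Promoter windows were read from RefSeq for GRCm38.p6.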

Additional observations from a re-analysis of the deposited data

Results flagged for a closer look

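For Dixon's test at the 95% level, 130 sets of 4 libraries of 1 population were listed. Sets with equal values throughout, and sets of a single gene with no library above 3 counts, were passed over, so fewer than 130 were tested. Chance alone marks about 1 in 20 tested sets of normally distributed values, and levels with many zeros need not follow that rate. In 18 sets 1 library stood apart from the other 3. Among the 9 genes these were Madcam1 in bottom 4 at 75.8 CPM, Madcam1 in top 2 at 3.14 CPM and Cxcl13 in top 2 at 1.63 CPM. Top 2 was the top library that stood apart in both of these genes. Among their partners, Ccl21a stood apart in bottom 2 at 2.15 CPM and Itgb7 in bottom 1 at 0.765 CPM. Cxcr7 (Ackr3) stood apart in bottom 4 at 1.11 CPM and in top 2 at 1.00 CPM, Cxcr4 in top 1 at 1.15 CPM and Cxcr5 in top 3 at 4.45 CPM. Of the pathway genes, Chuk stood apart in bottom 2 at 133 CPM, Ccl25 in top 1 at 91.5 CPM, Ccrl2 in top 3 at 68.0 CPM and Csf1 in top 3 at 28.9 CPM. Of the genes most like Ccl19, Col3a1 stood apart in bottom 4 at 187 CPM and Olfml3 in top 2 at 1.00 CPM. Among the marker sums, blood endothelial markers stood apart in bottom 4 at 354.3 CPM, lymphatic endothelial markers in bottom 3, which was low at 19.1 CPM, and delta cell markers in top 3 at 5305 CPM.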

How the results depend on the processing

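The number of genes called between bottom and top was 52. It was 589 with DESeq2, 145 with limma, 204 with no filter on low counts, 32 with no batch term, 2 in batch 1 alone and 2 in batch 2 alone. Leaving out 1 library gave 8 (without top 2) to 60 (without bottom 1), with 11 without bottom 4. RLE factors gave 48 and total-count scaling 71. The log2 fold change of Ccl19 stayed between 8.37 and 11.40 over 16 alternatives. It was among the genes called in 8 of them and not without bottom 2, without bottom 4, without each top library in turn or in each batch alone, which is a description since the gene was chosen on this contrast. Ltbr was among the genes called by DESeq2 and in no other alternative. Pathway genes called numbered 0, with 4 by DESeq2, 1 by limma, 4 with no filter (Cd34, Cxcl16, Fn1 and Mfge8), and 0 to 1 when 1 library was left out. Within bottom, batch 2 over batch 1 gave 0 calls, with 787 by DESeq2, 48 by limma, 415 with no filter, and 0 to 10 when 1 library was left out (10 without bottom 2). Within top it gave 0, with 56 by DESeq2 and 9 with no filter. The interaction gave 0, with 189 by DESeq2 and 71 with no filter. Signs turned for Ccl19 in the batch contrast within bottom (-1.89 without bottom 4, with 6.72 at the other end of the range, without bottom 2) and for Bst1 (-0.08 without bottom 2 and -10.42 without bottom 4, with 8.56 at the other end, without bottom 1). The cause of these changes was not tested. Where a fit left 1 library in a population and batch, that library was assumed to vary like the others. No paired analysis was possible because the populations share only the number 1 in the library titles. Libraries held 6657639 to 11262368 counts. A gene without a count in a population could still have a pooled level up to 0.0747 CPM in bottom or 0.102 CPM in top. These limits hold only for genes that the counting could capture.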
